A study of Homo sapiens with 18 samples.

Results

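The transcripts of 10 genes for secreted matrix glycoproteins (FN1, POSTN, CCDC80, TNC, VCAN, SPARC, FBN1, EFEMP1, MAMDC2 and SVEP1) were followed through 6 human ovarian cancer cell lines. The genes were chosen by symbol, and all 10 were among the 12853 genes of the expression table. The choice used values of the same table, namely the high level of FN1 in PEA2, the appearance of POSTN in CP70 and the fall of CCDC80 in the 3 resistant lines. Those values are described here without a test. RNA depleted of ribosomal RNA was sequenced from 3 libraries of each line, 18 in all, and the lines form 3 pairs that each join a line labelled platinum sensitive with one labelled resistant. CP70 was selected for resistance in culture from A2780, which its labels place among endometrial or ovarian cancer cells. PEO1 and PEO4, like PEA1 and PEA2, are lines established from high-grade serous cancer before (PEO1, PEA1) and after (PEO4, PEA2) clinical resistance appeared. According to the study, PEO1 was taken after platinum-based chemotherapy and PEA1 before it. All lines were grown in RPMI-1640 with glutamine and fetal bovine serum, and the labels of these libraries name no drug added to the cultures. Each pair is 1 sensitive and 1 resistant line. Whether the 3 libraries of a line came from separate cultures is not stated, so p-values measure only the spread between libraries, which may be technical.

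The extracellular matrix is the network of secreted proteins and proteoglycans to which cells attach. Fibronectin and the fibrillins form fibrils, and matricellular proteins such as periostin, tenascin C and SPARC bind to these and to receptors, mainly integrins, without being the main structural load. In solid tumours, ovarian cancer included, fibroblasts are a well-known source of many of these proteins, and cancer cells themselves can also secrete them. The libraries here are from cultured lines, and in such bulk RNA fewer cells that express a gene and less RNA per cell cannot be told apart.

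The 3 genes whose values entered the choice, FN1, POSTN and CCDC80, have unlike promoters. They are shown with the promoter of MAMDC2, a gene that, like CCDC80, was lower in the resistant line of every pair. Each line gives the 250 bases before the RefSeq transcription start (build GRCh38.p14), from 5′ to 3′ on the strand of the gene, and 8 of the 10 genes matched this RefSeq table. Capitals mark any match, on either strand, to the TATA box TATAAA, the cAMP response element TGACGTCA, the CCAAT box CCAAT, the GC box GGGCGG, the AP-1 site TGANTCA or the TEAD site GGAATG.
FN1 (chr2:215436069-215436318, minus strand): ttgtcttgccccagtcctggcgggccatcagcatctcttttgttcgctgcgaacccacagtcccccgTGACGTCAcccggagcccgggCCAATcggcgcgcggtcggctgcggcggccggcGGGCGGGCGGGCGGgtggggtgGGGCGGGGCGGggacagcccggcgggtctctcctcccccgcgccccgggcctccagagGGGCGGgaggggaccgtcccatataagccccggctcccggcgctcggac
POSTN (chr13:37598769-37599018, minus strand): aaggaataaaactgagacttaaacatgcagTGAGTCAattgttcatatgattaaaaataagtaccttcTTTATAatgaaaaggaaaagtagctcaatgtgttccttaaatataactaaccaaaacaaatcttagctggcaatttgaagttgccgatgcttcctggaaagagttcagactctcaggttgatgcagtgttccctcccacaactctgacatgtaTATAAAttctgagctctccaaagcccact
CCDC80 (chr3:112641144-112641393, minus strand): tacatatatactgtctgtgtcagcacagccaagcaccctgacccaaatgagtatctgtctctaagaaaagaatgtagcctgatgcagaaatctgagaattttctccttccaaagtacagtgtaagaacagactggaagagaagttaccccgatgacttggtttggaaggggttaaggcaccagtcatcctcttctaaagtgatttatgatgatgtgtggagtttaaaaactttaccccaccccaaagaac
MAMDC2 (chr9:70043331-70043580, plus strand): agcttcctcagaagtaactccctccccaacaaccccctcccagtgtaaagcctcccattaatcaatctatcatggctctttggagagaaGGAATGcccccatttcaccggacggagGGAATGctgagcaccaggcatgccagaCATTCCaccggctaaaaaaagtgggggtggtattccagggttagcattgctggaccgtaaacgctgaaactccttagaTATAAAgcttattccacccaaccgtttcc
The FN1 window had a GC content of 76.4% and 32 CpG dinucleotides, against a median of 58% and 11 over 35097 promoters. It held 6 GC boxes, some of which overlap, 1 cAMP response element 183 to 176 bases before the start and 1 CCAAT box. The POSTN window had a GC content of 36.4% and 1 CpG, and held a TATA box 29 to 24 bases before the start, another on the opposite strand 182 to 177 bases before it, and 1 AP-1 site. The CCDC80 window, with a GC content of 42% and 1 CpG, held none of the 6 motifs. The MAMDC2 window, with a GC content of 50.4%, held a TATA box 29 to 24 bases before the start and 3 TEAD sites. MAMDC2 has another RefSeq start downstream, whose window held 2 overlapping GC boxes and no TATA box. Of all promoters, 10.7% held a TATA box, 1.65% a cAMP response element, 32% a CCAAT box, 42.6% a GC box, 6.57% an AP-1 site and 11.9% a TEAD site. Such matches describe letters and not bound factors.

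Expression values are those deposited by the authors, log2 CPM (read counts scaled to library size) with 0.5 reads added, and a difference of such values is given as log2FC. The libraries held 1344098 to 7067336 reads on the listed genes, so that 3 reads stand for 0.452 to 2.18 CPM, and the lowest depth was in PEA1. A gene with at most 3 reads in every library of a line is called not detectable there, and a fold against such a line is a lower bound computed against 3 reads. These bounds cover counting error only. Labels were compared with marker genes. The 7 markers of serous or Mullerian ovarian carcinoma summed to 284 to 390 CPM in PEA1, 493 to 639 in PEA2, 3028 to 4297 in PEO1 and 3163 to 5000 in PEO4, but to at most 1.19 in A2780 and CP70, where PAX8 had at most 1 read in any library. Different genes led these sums. PAX8 carried that of PEA1 (mean log2 CPM 8.35), where each other marker had at most 11 reads in a library. MUC16 was the highest in PEO1 (11.42) and PEO4 (11.31). The 6 epithelial markers summed to 154 to 202 CPM in PEA1 and to 3742 to 3915 in PEA2.

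Each line had its own make-up of these transcripts. Divided by the length of the canonical transcript, POSTN made up 89.7% of the summed level of the 10 genes in CP70, and FN1 96.8% in PEA2 and 76.2% in PEA1. In the other 3 lines SPARC, a collagen-binding matricellular protein, was the most abundant of the 10 per kilobase, with 66.3% in A2780, 49.4% in PEO1 and 55.3% in PEO4. These are shares of levels in CPM per kilobase, and the canonical CCDC80 transcript is long (12301 bases), which lowers its value on this scale if shorter transcripts are used. Of the 60 combinations of a gene and a line, 18 were not detectable, and FN1, CCDC80, SPARC and FBN1 were the 4 genes above 3 reads in some library of all 6 lines.

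**Figure D1:**
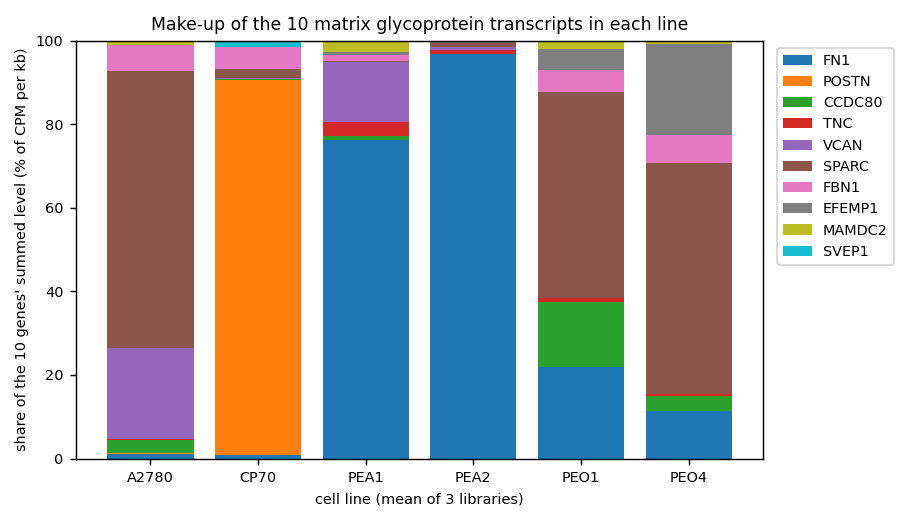
Stacked bars give the share of each gene in the summed CPM per kilobase of the 10 genes (y axis, %), for each line as the mean of 3 libraries. FN1 fills 96.8% of the bar of PEA2, POSTN 89.7% of that of CP70, and SPARC is the leading gene in A2780, PEO1 and PEO4.

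FN1 (ENSG00000115414, chr2:216225163-216300796 on the minus strand of GRCh37) codes for fibronectin, which integrins on the cell surface assemble into fibrils. Its log2 CPM was 15.23, 15.57 and 15.20 in the libraries of PEA2 and 11.23, 11.05 and 11.10 in those of PEA1. It was 8.15, 8.18 and 8.41 in PEO1 and 6.87, 6.95 and 6.83 in PEO4. In CP70 it was 3.55, 4.16 and 2.80, and in A2780 2.21, 1.44 and 2.70, from as few as 10 reads. No neighbouring lines overlapped in this order, in which the PEA lines stand at the top and the A2780 pair at the bottom. In PEA2 alone FN1 took 3.29 to 4.2% of all reads on listed genes, 41555 ± 6197 CPM (SD, n = 3), against 2239 ± 148 CPM in PEA1, a log2FC of 4.21 that is part of the choice of the gene and carries no test. FN1 changed in opposite directions in the other pairs. It was higher in CP70 (log2FC 1.39 ± 0.26 SE, limma FDR 0.000229) and lower in PEO4 (-1.36 ± 0.26, FDR 0.000301), and the changes of these pairs differed by -2.75 ± 0.37 (FDR 4.47e-06). Both changes were below the threshold of |log2FC| > 2 used for calls.

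The sensitive lines already differed widely. FN1 in PEA1 was 504-fold above A2780 (log2FC 9.01, FDR 1.13e-16) and 7.36-fold above PEO1 (2.88, FDR 8.99e-09). A line labelled sensitive thus held more FN1 mRNA than the resistant PEO4 or CP70, where the means were 118 and 12.1 CPM.

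POSTN (ENSG00000133110, chr13:38136720-38172981, minus strand) codes for periostin, a matricellular protein that binds integrins and collagen. Its log2 CPM was 8.80, 8.94 and 8.96 in CP70, from 2720, 2073 and 1891 reads. The libraries of A2780 held 0 to 2 reads, and those of the 4 PEA and PEO lines at most 1. POSTN was therefore detectable in CP70 alone, at 478 ± 28.3 CPM (SD, n = 3), at least 357-fold higher than in A2780. The values of the other 5 lines overlap. This is the pattern for which the gene was chosen, and the contrast with CP70 was not tested. In the tested pairs the log2FC was -0.17 for PEA (FDR 0.848) and 1.0 for PEO (FDR 0.272), both between lines at the floor. SVEP1 (ENSG00000165124, chr9:113127528-113342160, minus strand), which codes for a large matrix protein that binds integrins, was at the floor in the same 5 lines. It had 200, 95 and 118 reads in CP70 (log2 CPM 5.04, 4.50 and 4.96), 0 in A2780, and at most 3 in any library of the other lines. SVEP1 rose at least 21.5-fold in CP70 over A2780 (log2FC 7.48 ± 0.70 SE, FDR 2.82e-08). Its change in the PEA pair was 0.00 (FDR 0.996) and in the PEO pair 1.0 (FDR 0.275), and both differed from that of the A2780 pair (by -7.49, FDR 2.38e-06, and -6.49, FDR 2.00e-05).

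CP70 also had the highest summed level of stromal markers of the 6 lines. The 7 of 10 markers in the table summed to 931 to 1071 CPM there and to 572 to 793 CPM in A2780, and all 7 were above 3 reads in CP70, against 6 in A2780. COL3A1, a fibrillar collagen, made up most of the sum, with a mean log2 CPM of 9.28 in A2780 and 9.77 in CP70. The means of DCN (1.19 and 4.56), LUM (-0.36 and 3.50), COL1A2 (-1.35 and 3.85) and THY1 (1.49 and 4.92) were also higher in CP70, whereas those of ACTA2 (6.0 and 4.98) and COL1A1 (2.71 and 2.22) were lower. The 6 epithelial markers summed to 2.24 to 3.13 CPM in A2780 and to 89.4 to 95.8 CPM in CP70, with KRT18 at 0.16 and 6.0, EPCAM at 0.21 and 3.99 and KRT8 at -1.35 and 3.68 as mean log2 CPM, while CDH1, KRT7 and KRT19 had at most 2 reads in both lines. The part of these markers in the POSTN and SVEP1 values, and in the other changes of the A2780 pair, was not tested.

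CCDC80 (ENSG00000091986, chr3:112315644-112368377, minus strand) codes for a secreted protein that binds matrix components. In the sensitive lines it stood at log2 CPM 8.37, 8.42 and 8.16 in PEO1, 5.36, 5.14 and 5.19 in PEA1, and 4.30, 4.16 and 4.28 in A2780. The resistant lines gave 5.51, 5.89 and 5.85 in PEO4, 1.75, 2.21 and 2.03 in CP70, and 2.00, 1.11 and 1.04 in PEA2. Every library of a resistant line was below every library of its own sensitive line, by a log2FC of -2.25 (A2780), -3.85 (PEA) and -2.57 (PEO), which is the pattern used to choose the gene. The level did not separate sensitive from resistant lines, since PEO4 lay above both A2780 and PEA1. PEA2 rested on 7, 7 and 4 reads and overlapped CP70. Contrasts that the choice did not use were tested. CCDC80 was 17.0-fold higher in PEO1 than in A2780 (log2FC 4.07, FDR 1.10e-12), 8.58-fold lower in PEA1 than in PEO1 (-3.09, FDR 1.86e-10), and 13.8-fold higher in PEO4 than in CP70 (3.76, FDR 4.88e-12).

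MAMDC2 (ENSG00000165072, chr9:72658764-72841888, plus strand), which codes for a proteoglycan with MAM domains, was, like CCDC80, lower in each resistant line. In PEA1 its log2 CPM was 4.73, 5.17 and 4.86, and PEA2 had 0, 1 and 0 reads. It was 3.53, 3.40 and 3.35 in PEO1 and 1.17, 2.37 and 1.16 in PEO4. A2780 had 9, 4 and 2 reads and CP70 had 0 in each library. In each pair the libraries of the 2 lines did not overlap. MAMDC2 fell at least 18.9-fold in PEA2 (log2FC -6.67, FDR 7.44e-11) and at least 1.88-fold in CP70 (-3.80, FDR 4.37e-07), and it was 3.50-fold lower in PEO4 (-1.86 ± 0.43 SE, FDR 0.00158), short of the threshold on log2FC. With CP70 and PEA2 at the floor, the falls in the A2780 and PEA pairs are both lower bounds, so their sizes cannot be ranked against each other. The fitted PEA change was lower than that of the PEO pair by 4.81 (FDR 1.37e-06). Without PEO4 replicate 2, the library with the most MAMDC2 reads of that line, the PEO change was -2.26 (FDR 0.000584) and was called. In the annotation MAMDC2 overlaps a processed pseudogene on the same strand (RPL24P8, also in the table) and antisense genes. TNC, VCAN, SPARC and FBN1 also have antisense neighbours. The library kit marks the strand, but the strand setting of the counting is not given in the sources used here, so reads of such neighbours cannot be set apart.

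**Figure D2:**
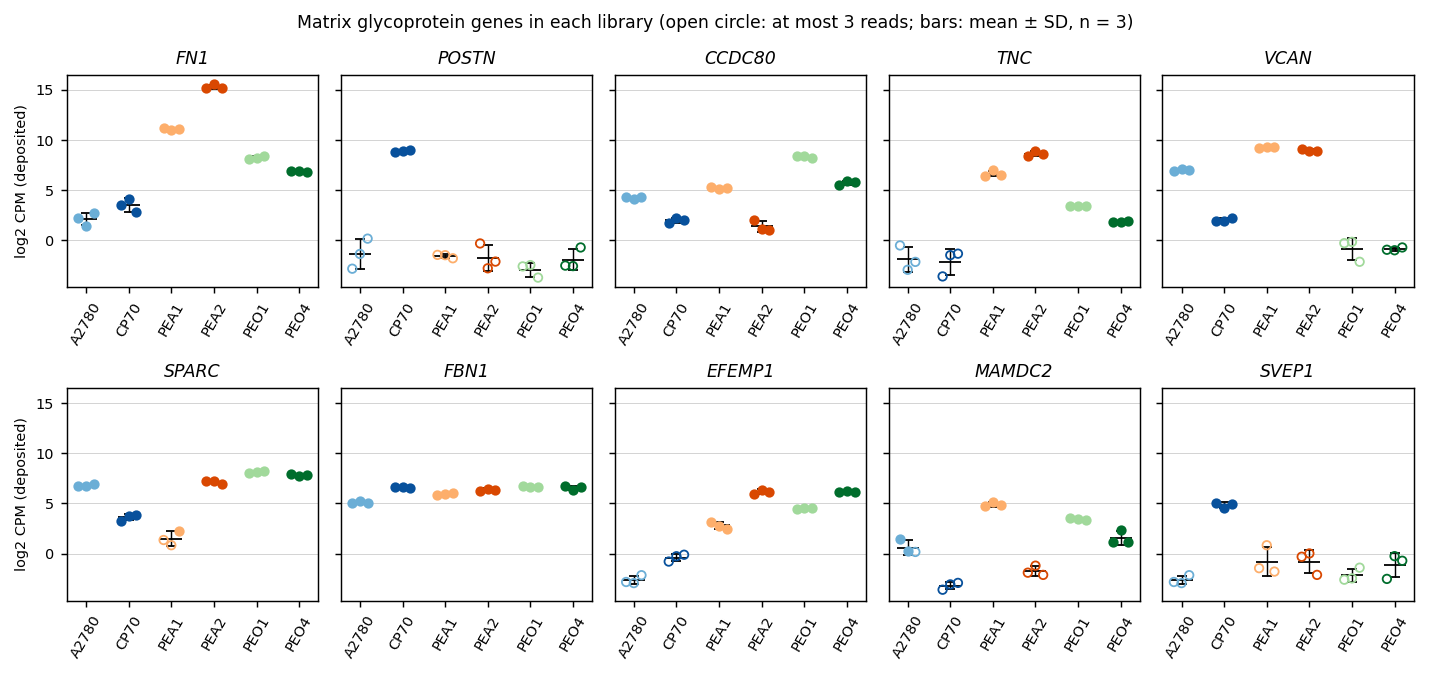
Each panel shows 1 gene, with its deposited log2 CPM (y axis, the same in all panels) in every library of the 6 lines (x axis). Open circles have at most 3 reads, and bars are the mean ± SD of 3 libraries. FN1 spans the widest range, POSTN and SVEP1 rise above 3 reads only in CP70, CCDC80 and MAMDC2 are lower in each resistant line than in its sensitive partner, and FBN1 differs little between lines.

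TNC (ENSG00000041982, chr9:117781854-117880486, minus strand) codes for tenascin C, a hexameric matricellular protein. In PEA2 its log2 CPM was 8.38, 8.86 and 8.64, and 6.45, 6.97 and 6.52 in PEA1. It was 3.41, 3.40 and 3.41 in PEO1 and 1.86, 1.81 and 1.95 in PEO4, and A2780 and CP70 had at most 2 reads. TNC thus stood in the same order of pairs as FN1, with the PEA lines highest. It was 3.94-fold higher in PEA2 (log2FC 1.98 ± 0.53 SE, FDR 0.00284), just inside the threshold of 2 and so not called, and 3.0-fold lower in PEO4 (-1.53, FDR 0.0241). The change in the PEA pair exceeded that in the PEO pair by 3.51 (FDR 0.000442). Leaving out PEA1 replicate 2 or PEA2 replicate 1 moved the PEA change to 2.14 or 2.10, past the threshold.

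VCAN (ENSG00000038427, chr5:82767437-82878122, plus strand) codes for versican, a hyaluronan-binding proteoglycan, and was present in the A2780 and PEA pairs only. A2780 gave log2 CPM values of 6.87, 7.13 and 7.03, and CP70 of 1.94, 1.88 and 2.20. The values were 9.25, 9.35 and 9.27 in PEA1 and 9.08, 8.91 and 8.91 in PEA2, and PEO1 and PEO4 had 1 or 2 reads. Every library of A2780 was above those of CP70, and every library of PEA1 above those of PEA2. VCAN fell 32.8-fold in CP70 (log2FC -5.00 ± 0.33 SE, FDR 1.46e-10). The change in the PEA pair was -0.32 (FDR 0.411), and the changes of the A2780 and PEA pairs differed by 4.68 (FDR 6.28e-08).

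SPARC (ENSG00000113140, chr5:151040657-151066536, minus strand) moved in opposite directions. Its log2 CPM was 6.73, 6.72 and 6.89 in A2780 and 3.26, 3.77 and 3.81 in CP70. In PEA1 it was 1.35, 0.83 and 2.29, from 3, 2 and 8 reads, and in PEA2 7.21, 7.22 and 6.97. PEO1 gave 8.04, 8.17 and 8.22, and PEO4 7.98, 7.77 and 7.88. The lines of a pair did not overlap in any of the 3 pairs. SPARC fell 8.91-fold in CP70 (log2FC -3.16 ± 0.23 SE, FDR 7.80e-10) and rose 51.4-fold in PEA2 (5.64 ± 0.23, FDR 1.34e-13), and these changes differed by 8.81 (FDR 4.03e-14). In the PEO pair the log2FC was -0.26 (FDR 0.396). Both PEO lines were above all other lines, with no overlap.

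EFEMP1 (ENSG00000115380, chr2:56093102-56151274, minus strand) codes for fibulin-3, a protein of elastic fibres and basement membranes. A2780 had 0 reads in each library, and CP70 had 3, 3 and 3. The log2 CPM of PEA1 was 3.18, 2.76 and 2.45, and that of PEA2 5.91, 6.38 and 6.18. It was 4.46, 4.59 and 4.56 in PEO1 and 6.14, 6.26 and 6.19 in PEO4, so that the 2 resistant lines PEA2 and PEO4 overlapped. EFEMP1 rose 10.6-fold in PEA2 (log2FC 3.36 ± 0.29 SE, FDR 5.23e-09). It was 3.17-fold higher in PEO4 (1.66 ± 0.29, FDR 0.000109), below the threshold on log2FC. The log2FC of 2.25 in the A2780 pair passed both thresholds (FDR 2.44e-06), but neither line had more than 3 reads in a library, and with 2 reads added in place of 0.5 it was 0.77, below the threshold.

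FBN1 (ENSG00000166147, chr15:48700510-48937918, minus strand), which codes for fibrillin-1, the main protein of microfibrils, was the most even of the 10. Its log2 CPM was 5.08, 5.27 and 5.08 in A2780 and 6.63, 6.63 and 6.52 in CP70. PEA1 gave 5.83, 5.98 and 6.0, and PEA2 6.23, 6.48 and 6.39. In PEO1 it was 6.72, 6.61 and 6.59, and in PEO4 6.71, 6.37 and 6.66, so that PEO1, CP70, PEO4 and PEA2 overlapped as neighbours. The line means spanned 1.5 on the log2 scale, against 13.22 for FN1 and 11.84 for POSTN. FBN1 was 1.45 ± 0.11 (SE) higher in CP70 (FDR 9.46e-10) and 0.43 higher in PEA2 (FDR 0.00198, but 0.18 with FDR 0.158 when libraries were scaled by total reads alone), and its log2FC in the PEO pair was -0.06 (FDR 0.719).

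Over the tested genes, the A2780 pair had the most calls, but its lead over the PEA pair rests on EFEMP1 and MAMDC2, with few reads. At |log2FC| > 2 and FDR < 0.05, 2 of 8 were higher in CP70 (SVEP1 and EFEMP1, the latter at the floor) and 3 were lower (VCAN, SPARC and MAMDC2), against 5.66% and 3.40% of all 12853 genes. MAMDC2 had 0 reads in CP70, and its bound there, at least 1.88-fold lower, is short of the threshold on log2FC. In the PEA pair 2 of 8 were higher (SPARC and EFEMP1) and 1 was lower (MAMDC2), against 7.93% and 6.15% of all genes. In the PEO pair 0 of 9 were called by limma, against 2.86% higher and 3.37% lower of all genes. The same 0 were called with voom weights, and 4 of the 9 had an unadjusted p under 0.05. By FDR alone 7 of 8, 5 of 8 and 4 of 9 passed in the A2780, PEA and PEO pairs, where 39.9%, 61.9% and 41.5% of all genes did, so that the shares in the PEA pair (5 of 8) and the PEO pair (4 of 9) were near those of all genes. The genes were chosen with such values known, and the counts describe them only. The median log2FC of the 10 genes was 0.56, 0.21 and -0.16 in the 3 pairs, against -0.02, 0.01 and -0.02 over all genes. With genes at the floor set to their bound and those without a fold left out, it was 0.27, 1.21 and -1.36.

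**Figure D3:**
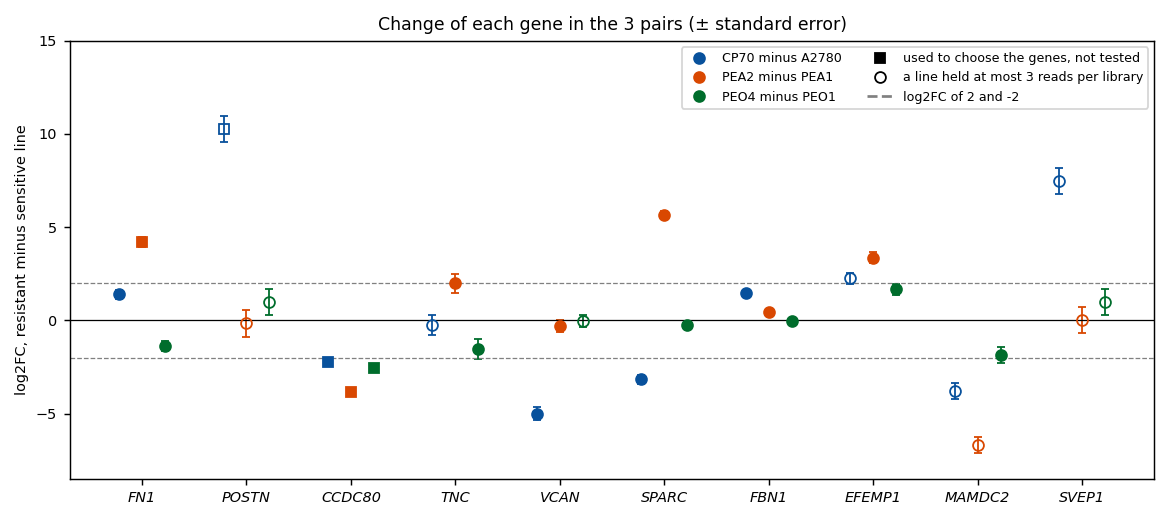
The log2FC (y axis, resistant minus sensitive line, ± SE) of each gene (x axis) is given for the A2780, PEA and PEO pairs. Squares are values that chose the genes and were not tested, open symbols have a line with at most 3 reads per library, and dashed lines stand at 2 and -2. SPARC lies at 5.64 in the PEA pair and at -3.16 in the A2780 pair, VCAN at -5.00 in the A2780 pair alone, and all 3 values of CCDC80 and of MAMDC2 are below 0.

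The changes of the pairs were compared with each other. The PEA and A2780 pairs differed in 7 of 7 genes, the PEO and A2780 pairs in 6 of 8 and the PEA and PEO pairs in 5 of 8 at FDR < 0.05, where 57.5%, 47.5% and 58.7% of all genes did, the last share being near that of the genes tested. Among the 7, the MAMDC2 difference compares lower bounds, TNC and EFEMP1 had A2780 and CP70 at the floor, and SVEP1 was above it in CP70 alone. Among the 6, SVEP1 was again above the floor in CP70 alone, VCAN had PEO1 and PEO4 at the floor, and MAMDC2 had CP70 there. The EFEMP1 difference was also lost under several alternatives, given in the closing section. Lines of the same sensitivity differed too. Among sensitive lines, 6 of 10 genes were called between PEO1 and A2780 and 6 of 10 between PEA1 and A2780, against 23.1% and 22.1% of all genes, and 5 of 10 between PEA1 and PEO1, against 16.7%. Among resistant lines, 8 of 9 were called between PEO4 and CP70 (21.4% of all genes), 5 of 8 between PEA2 and CP70 (22.3%) and 4 of 9 between PEA2 and PEO4 (16.8%). VCAN gave wide gaps, at least 584-fold higher in PEA1 than in PEO1 (log2FC 10.16, FDR 3.01e-15) and at least 411-fold higher in PEA2 than in PEO4 (9.85, FDR 4.35e-15). TNC in PEA2 was at least 505-fold above CP70 (10.77, FDR 3.37e-13).

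Markers of other cell types moved with the PEA pair. PTPRC, the only leucocyte marker in the table, stood at 20.1 to 25.1 CPM in PEA2 (up to 70 reads) and had at most 2 reads in any library of the other lines. CDH5, the only endothelial marker in the table, stood at 25.3 to 36.1 CPM in PEA2, with at most 1 read elsewhere. The 3 mesothelial markers summed to 146 to 176 CPM in PEA1 and 240 to 298 CPM in PEA2. The summed stromal markers went from 367 to 450 CPM in PEA1 to 8.63 to 10.5 CPM in PEA2. COL1A1 carried this fall (mean log2 CPM 8.62 and 1.95). The means of ACTA2 (0.78 and 2.24, at most 4 and 18 reads) and COL1A2 (-1.58 and 0.18, at most 0 and 5 reads) were higher in PEA2, from few reads. THY1 had at most 2 reads in PEA1 and 0 in PEA2, and DCN, LUM and COL3A1 had 0 reads in both lines. CDH1 and KRT7, both epithelial, had at most 4 and 3 reads in PEA1 and up to 2187 and 3913 in PEA2. The part of these markers in the FN1, SPARC, TNC, EFEMP1 and MAMDC2 values was not tested.

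Across the 6 line means, and as a description with n = 6 lines that share libraries and depth between genes, FN1 went with TNC (Pearson r 0.98), POSTN with SVEP1 (0.96) and CCDC80 with MAMDC2 (0.82). The values that chose FN1, POSTN and CCDC80 enter these r. POSTN and SVEP1 were not detectable outside CP70, so each r with either gene rests mainly on that line. Of 12819 genes compared, the most like FN1 were F2R (0.997), NAMPTL (0.996) and SC5D (0.993), and the most like TNC were ADAM12 (0.997), HM13 and SEPT2P1 (both 0.996). For POSTN they were ALDH1A1 (0.994), GCG and MUSK (both 0.992), of which ALDH1A1 spanned 13.00 on the log2 scale against 11.84 for POSTN. For CCDC80 they were ZBTB14 (0.995), KNTC1 (0.979) and IVD (0.973), but ZBTB14 spanned 0.76 against 6.93 for CCDC80, so that a high r here marks the order and spacing of 6 points and not the size. The most like VCAN were SMCR8, DEGS1 and PDP2, the most like SPARC TRIM23, TAF1D and HIRIP3, and the most like FBN1 LRP11, SLC9A2 and CCNO. EFEMP1 was nearest to TCEAL3, SEMA3A and IFNGR1, MAMDC2 to THNSL1, CLCN7 and RFX7, and SVEP1 to PSMB1, CDC37L1 and ZPLD1. Values of r for these 6 genes ran from 0.976 to 0.999.

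Other genes of the matrix and its receptors were taken from 9 lists of 117 symbols (some of them older and newer names of 1 gene), of which 62 were measured. In the A2780 pair 7 were higher and 9 lower, in the PEA pair 16 and 12, and in the PEO pair 7 and 8, by the same call as above. Of all 12853 genes, 5.66% and 3.40%, 7.93% and 6.15%, and 2.86% and 3.37% were called higher and lower in these pairs. These shares are also the background of the called counts by list below. For the counts by unadjusted p below, the share of all genes is not given. FDR < 0.05 alone, a stricter rule, was passed by 39.9%, 61.9% and 41.5% of all genes in the A2780, PEA and PEO pairs. The median log2FC of the 62 was 0.12, -0.11 and -0.02, near that of all genes, and 0.00, 0.00 and -0.05 with genes at the floor set to their bound. Called genes of the matrix lay on both sides in each pair.

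Of the relatives of fibronectin, periostin and tenascin, TNXB (tenascin X) and TGFBI (a paralogue of periostin) were measured. TNXB rose in PEO4 (log2FC 4.43, FDR 2.16e-07) and fell at least 4.21-fold in CP70 (-2.51, FDR 0.000185). TGFBI fell in PEO4 (-3.92, FDR 1.03e-07). Of 3 thrombospondins, THBS1 fell in all 3 resistant lines, by 27.5-fold in CP70 (-4.78, FDR 3.02e-17), 8.47-fold in PEA2 (-3.08, FDR 5.09e-14) and 4.64-fold in PEO4 (-2.23, FDR 2.16e-11), and THBS2 rose 8.18-fold in PEA2 (2.87, FDR 0.000110). Of 5 members of the SPARC family, 2 rose in CP70, FSTL3 among them (2.25, FDR 2.76e-06) and 3 rose in PEA2. In PEO4 0 were called by limma or with voom weights, and 3 had an unadjusted p under 0.05. In the CCN family, NOV rose (3.38, FDR 2.72e-07) and CTGF fell (-3.24, FDR 1.20e-11) in PEA2. Of the 3 CCN genes measured, 0 were called by limma or with voom weights in CP70 and PEO4, where 1 and 2 had an unadjusted p under 0.05.

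Partners of fibrillin-1 and fibulin-3 also moved in both directions. Of 12 microfibril and elastic fibre genes, 1 rose and 4 fell in CP70, 4 rose and 3 fell in PEA2, and 3 rose and 1 fell in PEO4. Of the 4 that fell in CP70, 1 had 0 reads there and at most 4 in A2780, too few for a bound above 1-fold. In PEA2, where EFEMP1 rose, its relatives FBLN1 (fibulin-1, -3.50, FDR 1.90e-12) and EFEMP2 (fibulin-4, -3.46, FDR 2.72e-09) fell, whereas EFEMP2 rose in CP70 (2.52, FDR 4.26e-07). HMCN1 fell in CP70 (-2.49, FDR 0.000575) and at least 6.43-fold in PEA2 (-3.89, FDR 1.82e-06), where it was not detectable. ADAMTSL4 rose in PEO4 (2.73, FDR 2.88e-06). Of the 3 genes of the versican and hyaluronan list, HAPLN3, a link protein, rose in PEA2 (2.25, FDR 0.00186) and CP70 (2.10, FDR 0.00532), and CD44, the hyaluronan receptor, fell 4.25-fold in PEO4 (-2.08, FDR 6.61e-06). Of 4 small leucine-rich proteoglycans, LUM (3.86, FDR 2.63e-05) and DCN (3.37, FDR 4.96e-05) rose in CP70 beside POSTN, and PRELP rose in PEO4 (5.16, FDR 2.35e-07). In PEA2 0 were called by limma or with voom weights, and 1 had an unadjusted p under 0.05.

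Among 18 other matrix glycoproteins, 1 rose and 2 fell in CP70, 4 rose and 5 fell in PEA2, and 2 rose and 4 fell in PEO4. Of the 4 that rose in PEA2, 1 had at most 5 reads there and 0 in PEA1, too few for a bound above 1-fold. NID2 (nidogen-2 of basement membranes) rose 98.2-fold in PEA2 (log2FC 6.61, FDR 1.04e-12) but fell in CP70 (-4.90, FDR 9.80e-11) and PEO4 (-2.75, FDR 7.82e-07). SPP1 (osteopontin) fell in PEA2 (-7.33, FDR 1.61e-09) and rose in PEO4 (2.71, FDR 0.000828). NPNT (nephronectin) fell in PEA2 (-7.11, FDR 1.20e-10) and at least 6.96-fold in PEO4 (-3.95, FDR 1.28e-06), where it was not detectable. LGALS3BP rose 47.7-fold in CP70 (5.56, FDR 4.21e-15). Of 12 receptors of fibronectin and tenascin, 2 rose and 2 fell in PEA2, the line with the most FN1. SDC4, a syndecan that binds fibronectin, rose (2.69, FDR 1.04e-12), as did the integrin subunit ITGB8 (2.46, FDR 2.91e-06). The integrin subunits ITGB3 (-6.17, FDR 3.25e-08) and ITGA4 (-5.50, FDR 3.55e-06) fell. In CP70 only SDC2 of the 12 was called (-6.74, FDR 3.70e-18), and in PEO4 0 were called by limma or with voom weights, where 7 had an unadjusted p under 0.05.

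**Figure D4:**
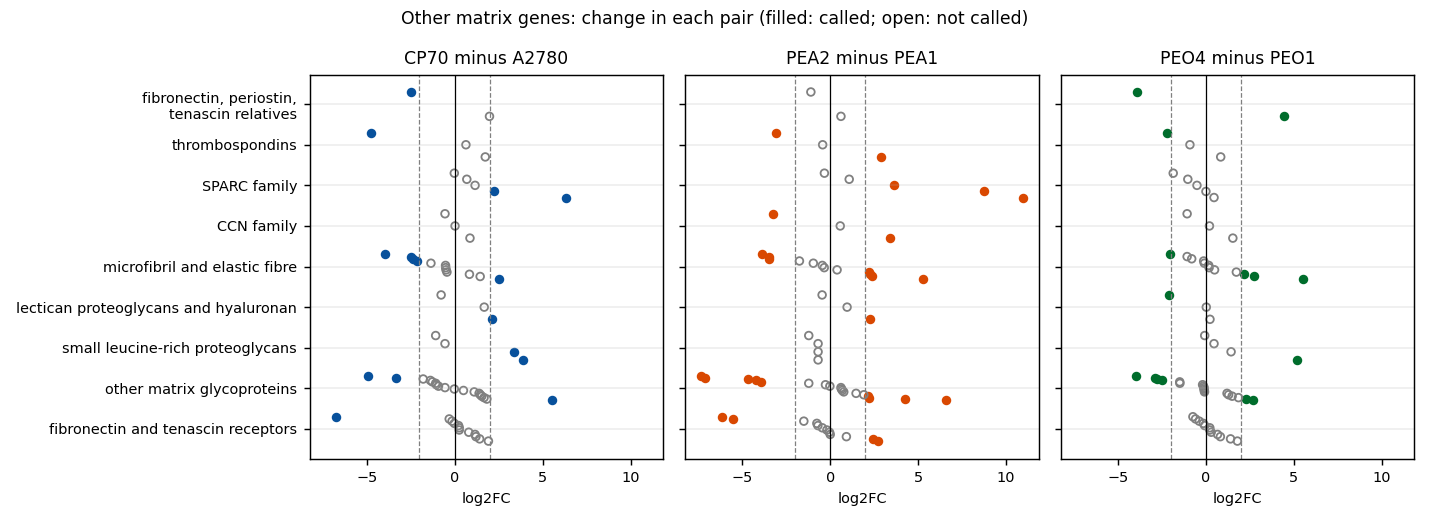
Each point is 1 of the 62 measured matrix and receptor genes outside the group of 10, by list (rows), with its log2FC in the A2780, PEA and PEO pairs (panels, x axis). Filled points are called and dashed lines stand at 2 and -2. Called points lie on both sides of 0 in each pair, 16 higher and 12 lower in the PEA pair.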

How the data were processed

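RNA-seq of 6 lines with 3 libraries each (18 in all) was used, with groups taken from the sample titles. The submitters' processing notes name Bowtie2, featureCounts, limma and hg19, without versions. The role of Bowtie2 is not stated, and the effect of its use on genes with many exons was not tested. The authors deposited log2 CPM values with 0.5 reads added and a scaled library size. Whole reads (tolerance 0.02) were recovered from 100% of values to give depth. Replicates differed by more than counting noise (chi-square per degree of freedom 1.75 to 13.8).

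Tests on the deposited log2 values used limma 3.58.1 (R 4.3.3), with 1 fit of 18 libraries with a mean per line and a variance trend, and p was adjusted by Benjamini-Hochberg over 12853 genes (FDR). Calls needed |log2FC| above 2 and FDR below 0.05. Gene spans came from a GRCh37 annotation, which matched 12642 identifiers and did not match 211.

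The 10 genes, the lists and the markers were chosen with earlier results of these data known. Named genes are the 10, the 3 genes most correlated with each, and up to 4 of each list with the largest called log2FC and over 3 reads in both lines. ITGB8 was added to complete the receptors called in PEA2. DCN, LUM, THY1, ACTA2, COL1A1, COL1A2, COL3A1, EPCAM, KRT8, KRT18, KRT19, PTPRC, CDH5, CDH1, KRT7, PAX8 and MUC16 are markers named after their values were seen. The calculations were tested on simulated data. Alternatives are given in the closing section, and voom weights and the alternatives for the lists were chosen after seeing the data.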

Additional observations from a re-analysis of the deposited data

Results flagged for a closer look

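The tested difference between the changes of a pair and of another passed FDR < 0.05 (limma) for 18 results, given as a difference of log2FC. These were 7 of 7 genes for PEA minus A2780, 6 of 8 for PEO minus A2780 and 5 of 8 for PEA minus PEO. Of all genes, 57.5%, 47.5% and 58.7% passed the same tests. FN1 moved up in CP70 and down in PEO4, and the PEO change minus the A2780 change was -2.75 ± 0.37 (SE, FDR 4.47e-06).

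For SPARC, all 3 differences passed. They were 8.81 ± 0.33 for PEA minus A2780 (FDR 4.03e-14), 2.90 ± 0.33 for PEO minus A2780 (FDR 5.06e-07) and 5.91 ± 0.33 for PEA minus PEO (FDR 1.86e-11). VCAN differed by 4.68 ± 0.47 for PEA minus A2780 (FDR 6.28e-08) and by 4.98 ± 0.47 for PEO minus A2780 (FDR 3.76e-08), where VCAN is not detectable in the PEO lines. TNC differed by 2.25 ± 0.74 for PEA minus A2780 (FDR 0.0141), with the A2780 lines at the floor, and by 3.51 ± 0.74 for PEA minus PEO (FDR 0.000442).

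MAMDC2 differed by -2.87 ± 0.61 for PEA minus A2780 (FDR 0.000469), 1.94 ± 0.61 for PEO minus A2780 (FDR 0.0127) and -4.81 ± 0.61 for PEA minus PEO (FDR 1.37e-06). CP70 and PEA2 are at the floor for MAMDC2, so the A2780 and PEA falls are lower bounds, the first of these differences compares bounds, and the second was lost with 2 reads added. SVEP1, above the floor in CP70 alone, differed by -7.49 ± 0.99 for PEA minus A2780 (FDR 2.38e-06) and by -6.49 ± 0.99 for PEO minus A2780 (FDR 2.00e-05).

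FBN1, with small changes, differed by -1.02 ± 0.15 for PEA minus A2780 (FDR 1.13e-05), -1.51 ± 0.15 for PEO minus A2780 (FDR 1.09e-07) and 0.48 ± 0.15 for PEA minus PEO (FDR 0.0108). EFEMP1 differed by 1.10 ± 0.41 for PEA minus A2780 (FDR 0.0270), with the A2780 lines at the floor, and by 1.70 ± 0.41 for PEA minus PEO (FDR 0.00146).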

How the results depend on the processing

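No result past its threshold changed sign under any alternative run. In the PEO pair the count of called genes rose from 0 to 4 with |log2FC| above 1 and to 2 (TNC -2.38, MAMDC2 -2.81) with quantile normalization, and was 0 to 1 with 1 library left out. With |log2FC| above 1 the calls of the 9 lists rose from 16 to 32 in the A2780 pair and from 15 to 29 in the PEO pair. With 1 library left out, the counts were 5 in the A2780 pair, 3 to 4 in the PEA pair, 17 to 18 among sensitive lines, 17 among resistant lines and 17 to 19 differences between pairs, and the lists gave 15 to 19 calls in the A2780 pair, 28 to 29 in the PEA pair and 14 to 16 in the PEO pair.

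The EFEMP1 difference of 1.10 between the PEA and A2780 pairs was lost with total reads, unscaled (0.83, FDR 0.0875), with voom weights (1.17, FDR 0.0936) and without A2780 replicate 3 (0.86), CP70 replicate 1 (0.90), PEA1 replicate 3 (0.93) or PEA2 replicate 2 (0.99). The FBN1 difference of 0.48 was lost with quantile normalization (0.32, FDR 0.0731) and total reads, unscaled (0.21, FDR 0.253), and the MAMDC2 difference of 1.94 with quantile normalization (0.99, FDR 0.175) and 2 reads added (0.58, FDR 0.310). The cause was not tested. Quantile normalization lowered the FN1 change in the PEA pair from 4.21 to 2.50. Total reads without scaling moved the median log2FC of all genes in the PEA pair to -0.24, and gave FN1 3.96 there.

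Same-numbered libraries of a pair did not deviate together over all genes (r of -0.0354 to 0.0483). This check cannot exclude pairing by number, since it weighs genes with few reads like all others. With the replicate number as a block, 5, 3 and 0 genes were called in the A2780, PEA and PEO pairs, 17 among sensitive and 17 among resistant lines, 18 differences passed, and the lists gave 16, 28 and 15 calls, as without the block.

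The filter on a mean log2 value above 0 removed 355 genes, POSTN and SVEP1 among them, which then have no value. The planned quasi-likelihood count test was not run, and voom weights on the recovered reads were used in its place. Depth limits genes at or near 3 reads, such as CCDC80 in PEA2 and MAMDC2 in A2780.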
